A study of Homo sapiens with 6 samples.

Results

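The urokinase receptor and plasminogen system was described in U937 cells through 7 genes, taken by gene symbol from a table of 58735 genes: PLAUR, PLAU, SERPINB2, ANXA2, S100A10, MMP9 and TIMP1. U937 is an established human line of the monocytic lineage, entered in the labels as bone marrow and as Acute Promyelocytic Leukemia Cell. The groups were 3 libraries labelled oeBCL6B, which overexpress BCL6B (a zinc finger factor of the same family as the repressor BCL6) and 3 libraries labelled NC or control. The series design text names lentiviral vectors for overexpression in several leukaemia lines. The sources used here do not give the promoter that drives BCL6B, what the NC cells carry, or whether a pool or a clone was sequenced. No other treatment separates the groups in the labels. The titles of the 6 libraries name no batch, so a batch difference could not be tested. Separate cultures are not named for the replicates, so the p-values cover the spread of these 6 libraries, and this spread may be technical.

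Urokinase, encoded by PLAU, is a secreted serine protease that cuts the plasma protein plasminogen into plasmin, which dissolves fibrin and degrades matrix proteins. Its receptor, encoded by PLAUR, is held in the outer membrane by a lipid anchor, keeps urokinase at the cell surface and signals through integrins. SERPINB2 (plasminogen activator inhibitor type 2) inhibits urokinase, while annexin A2 and S100A10 form a surface complex that binds plasminogen. Matrix metalloproteinase 9 is a gelatinase that can be activated downstream of plasmin, and TIMP1 inhibits it. In monocytes the system is known for its part in adhesion and in movement through tissue.

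Promoters of 4 members are shown, to give the letters in front of their start sites. The sequences are RefSeq's for GRCh38.p14, 5′ to 3′ on the gene's own strand, and cover the 250 bases before the annotated start. For all 4 genes this start lies inside the gene extent given below, which begins further upstream. Motif positions hold only for the start used, and other starts of these 4 genes were not searched. PLAUR lies on the minus strand at chr19:43670170-43670419 and rose with BCL6B. ANXA2 lies on the minus strand at chr15:60397987-60398236 and was lower. SERPINB2 lies on the plus strand at chr18:63887455-63887704 and was near the detection limit. TIMP1 lies on the plus strand at chrX:47582186-47582435 and rose. Capitals mark matches to TGANTCA, the AP-1 motif, bound by JUN and FOS family proteins.
PLAUR: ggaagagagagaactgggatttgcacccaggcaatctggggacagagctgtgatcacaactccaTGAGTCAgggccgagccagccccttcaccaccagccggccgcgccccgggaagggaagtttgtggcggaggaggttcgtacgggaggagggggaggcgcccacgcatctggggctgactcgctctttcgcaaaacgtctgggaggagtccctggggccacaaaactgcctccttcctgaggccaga
ANXA2: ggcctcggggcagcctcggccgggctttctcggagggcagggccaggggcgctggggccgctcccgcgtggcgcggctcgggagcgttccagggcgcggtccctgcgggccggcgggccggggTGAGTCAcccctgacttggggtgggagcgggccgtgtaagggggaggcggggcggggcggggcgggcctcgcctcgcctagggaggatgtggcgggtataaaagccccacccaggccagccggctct
SERPINB2: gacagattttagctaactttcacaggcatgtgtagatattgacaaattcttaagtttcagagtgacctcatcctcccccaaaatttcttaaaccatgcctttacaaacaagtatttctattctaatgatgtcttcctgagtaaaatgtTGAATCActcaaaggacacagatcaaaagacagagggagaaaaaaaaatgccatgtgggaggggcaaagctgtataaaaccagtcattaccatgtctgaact
TIMP1: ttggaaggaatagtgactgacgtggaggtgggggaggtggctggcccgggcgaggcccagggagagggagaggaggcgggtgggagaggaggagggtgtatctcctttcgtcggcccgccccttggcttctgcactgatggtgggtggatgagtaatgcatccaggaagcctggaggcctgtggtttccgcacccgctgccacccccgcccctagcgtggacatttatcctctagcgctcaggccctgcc

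The search covered both strands of windows that run from 250 bases before to 50 bases after the start, and 6 of the 7 members had a window there (PLAU has a pair of them, and MMP9 was not matched). TGANTCA occurred once each in PLAUR, ANXA2 and SERPINB2, with its first base at -186, -127 and -102 from the start site. It was not found in the windows of PLAU, S100A10 or TIMP1. Of 35116 RefSeq promoters of the same length, 7.71% held it. Only exact matches to TGANTCA were counted, so a near match such as tgagtaa in the TIMP1 window was left out. The SP motif GGGCGG was present in ANXA2 (3 matches), in the second PLAU window (3 matches), in TIMP1 (2 matches) and in S100A10 (1 match), and in 45.0% of all promoters. The ETS motif AGGAAG, bound by factors such as PU.1, was present in PLAUR, PLAU, SERPINB2, S100A10 and TIMP1 and in 33.6% of all promoters. TATAAA lay at -30 in SERPINB2 and at -31 in ANXA2, against 11.5% of all promoters with a match. No member window held the NF-kB motif (5.91% of promoters) or TTCCTNGAA, the BCL6 motif (1.56%). Matches of different motifs did not overlap in these windows, whereas the 3 SP matches in ANXA2 each share a base with the next. A match is a description of letters and not evidence of binding.

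Expression was measured by RNA sequencing of oligo(dT)-selected RNA and deposited as FPKM, a level per length of gene and per library depth. Reads in listed genes came to 17095256 to 18870186 in the BCL6B libraries and 16481014 to 17627289 in the controls. Mitochondrial genes took 4.49% to 4.97% of reads with BCL6B and 4.17% to 4.44% in controls, and the part of this difference in the results below was not tested. BCL6B itself had 14.8, 15.7 and 19.5 FPKM in the overexpressing libraries and was listed at 0 in every control (limma adjusted p = 1.6e-05). GGT5, the enzyme gene named in the study's title, had 0.974, 1.28 and 1.03 FPKM with BCL6B and 2.43, 2.29 and 2.43 FPKM in controls (adjusted p = 0.00408). A value of 0 says only that the table lists 0, since genes used by most cells, such as SERPINB6, are also listed at or near 0. Of the myeloid markers, SPI1 (the gene of PU.1) was at 91.7 to 106 FPKM with BCL6B and 83.0 to 89.8 FPKM in controls, while CD14 stayed at or below 0.185 FPKM and CD68 at or below 0.0684 FPKM in both groups. The limit given for SERPINB6 also holds for CD14 and CD68, whose low values do not show that their RNA is absent. Over 10 myeloid markers, 8 were tested with limma, 0 rose (1, SPI1, at an unadjusted p under 0.05, and 0 with voom on the recovered reads) and 3 (LYZ, CD33 and MPO) fell. Among all tested genes 8.18% were higher and 10.1% lower, so 0 of 8 higher is near the background. The summed level of the 10 markers ran over 1733 to 1919.7 FPKM with BCL6B and 2136 to 2289.6 FPKM in controls. Most of this sum was MPO, at 1573 to 1759 FPKM with BCL6B and 1975 to 2121 FPKM in controls. The sum is therefore not a level of myeloid RNA at large, and 5 of the 8 tested markers did not pass. In bulk RNA, fewer cells of a type and less RNA per cell cannot be told apart.

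Markers of other cell types were mostly near 0. Of the 6 that limma tested 0 passed, while CD3D and PECAM1 had an unadjusted p under 0.05 and PECAM1 passed with voom. Among all tested genes 18.3% passed in either direction. CD3D was at 4.17 to 5.91 FPKM with BCL6B and 3.10 to 4.34 FPKM in controls, but CD3E, CD3G, CD2 and CD5 were at or below 0.0521 FPKM. The 5 B cell markers summed to 7.02 to 7.90 FPKM with BCL6B and 6.81 to 7.74 FPKM in controls, with PAX5 listed at 0. The epithelial list summed to 5.75 to 6.97 FPKM with BCL6B and 5.53 to 6.34 FPKM in controls, nearly all of it EPCAM, with KRT19 and CDH1 listed at 0. The endothelial list summed to 3.19 to 3.45 FPKM with BCL6B and 2.58 to 2.90 FPKM in controls, nearly all of it PECAM1, with CDH5 listed at 0. The erythroid list reached 0.149 FPKM with BCL6B and 0.0515 FPKM in controls, and the fibroblast list reached 0.169 FPKM with BCL6B and 0.152 FPKM in controls, with HBA1, HBA2, HBB, COL1A2 and DCN listed at 0.

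The 7 genes did not move as a block. The urokinase receptor rose most (1.85-fold), MMP9 and TIMP1 rose by similar amounts (1.49-fold and 1.46-fold), and the 2 subunits of the plasminogen-binding complex moved in opposite directions by small amounts. Urokinase itself did not pass the test, and SERPINB2 was too low to be tested. Genes were tested with limma on log2(FPKM + 1) where FPKM reached 0.5 in at least 3 of the 6 libraries, with Benjamini-Hochberg adjustment over the 14662 genes tested and a threshold of 0.05, two-sided. Of the 7 members, 6 were tested, 4 were higher with BCL6B, against 8.18% of all tested genes, and 1 was lower, against 10.1% of all tested genes. In either direction 18.3% of tested genes passed. In 5 of the 6 tested members the 2 groups of libraries did not overlap, against 40.0% of all tested genes. The median log2 change of the 6 tested members was 0.40, against -0.018 over all tested genes.

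**Figure D1:**
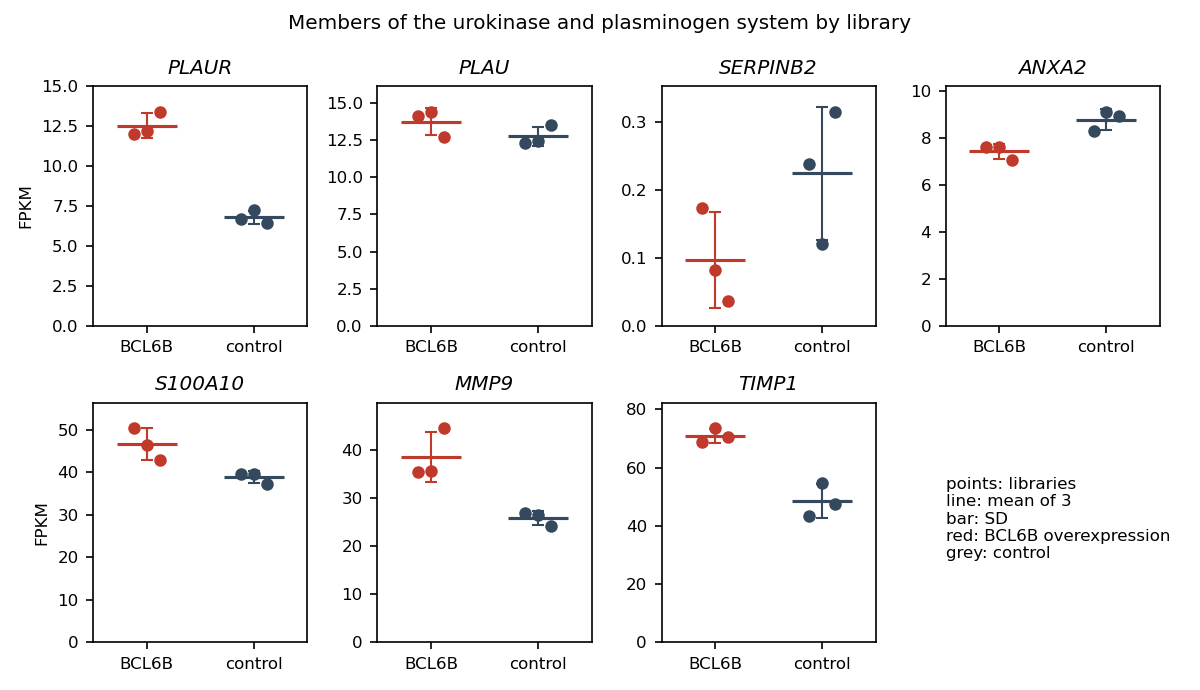
FPKM of each of the 7 genes in every library, with BCL6B-overexpressing libraries on the left and controls on the right of each panel. Points are libraries, horizontal lines are means of 3 and bars are SD; each panel has its own axis from 0. PLAUR, S100A10, MMP9 and TIMP1 lie higher in every BCL6B library than in any control, ANXA2 lies lower, and PLAU and SERPINB2 overlap.

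PLAUR (ENSG00000011422, GRCh38 chr19:43646095-43670547, minus strand) encodes the urokinase receptor. Its level was 12, 12.2 and 13.4 FPKM with BCL6B, against 6.71, 7.24 and 6.43 FPKM in controls. The reads behind these values numbered 1009, 969 and 1198 with BCL6B and 550, 588 and 497 in controls. The groups did not overlap, and the lowest BCL6B library lay far above the highest control. PLAUR averaged 12.5 ± 0.762 FPKM with BCL6B and 6.79 ± 0.415 FPKM in controls (SD, n = 3 each). The log2 change was 0.80 (SE 0.065, 95% interval 0.64 to 0.95), with a limma adjusted p of 0.00101. PLAUR had the 91st smallest p of the 14662 genes, although its level ranked 4530th. It passed without any single library, with adjusted p between 0.00439 and 0.00887.

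PLAU (ENSG00000122861, chr10:73909177-73917497, plus strand) encodes urokinase, the ligand that PLAUR binds. It had 14.1, 14.4 and 12.7 FPKM with BCL6B and 12.3, 12.4 and 13.5 FPKM in controls. The third BCL6B library lay below the highest control, so the groups overlapped. The means were 13.8 ± 0.901 FPKM with BCL6B and 12.7 ± 0.666 FPKM in controls, with a log2 change of 0.11 (95% interval -0.046 to 0.26; limma adjusted p = 0.294). The interval for PLAU lies below that for PLAUR. C10orf55 lies on the opposite strand and shares 916 exon bases with PLAU, and had 6 to 24 reads per library. The sources used here do not say whether counting used strand.

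The ratio of receptor to ligand was 0.851, 0.844 and 1.05 with BCL6B and 0.547, 0.585 and 0.477 in controls, on the scale of the deposited FPKM. Each BCL6B library had a higher ratio than any control. The mean log2 ratio was -0.135 ± 0.181 with BCL6B and -0.904 ± 0.151 in controls, a difference of 0.77 or 1.71-fold. A two-sided exact permutation test gave p = 0.1, the smallest that 3 against 3 libraries allow, and 0.2 after adjustment over the 4 ratios computed, so no ratio could pass.

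SERPINB2 (ENSG00000197632, chr18:63871692-63903890, plus strand) encodes plasminogen activator inhibitor type 2, which in other monocytic settings is strongly inducible. It had 0.174, 0.0815 and 0.0363 FPKM with BCL6B and 0.238, 0.120 and 0.315 FPKM in controls. These values rest on 9, 4 and 2 reads with BCL6B and 12, 6 and 15 reads in controls, and the groups overlapped. SERPINB2 was below the level filter. Its means were 0.0973 ± 0.0702 FPKM with BCL6B and 0.224 ± 0.0981 FPKM in controls (0.434-fold, two-sided exact permutation p = 0.2). That test cannot give a p below 0.1 here, so it could not have detected a difference. Without the filter, limma gave a log2 change of -0.16 (adjusted p = 0.354).

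The neighbouring SERPINB10, another clade B serpin on the same strand, shares 547 exon bases with SERPINB2, so reads of the pair may be split between them. SERPINB10 had 1.1, 0.871 and 0.628 FPKM with BCL6B and 1.73, 1.69 and 2.31 FPKM in controls (log2 change -0.64, limma adjusted p = 0.0196). It did not pass without BCL6B replicate 2 (0.0591), control replicate 1 (0.0514) or control replicate 3 (0.0623). The ratio of PLAU to SERPINB2 was 81.2, 177 and 351 with BCL6B and 51.7, 103 and 42.9 in controls, which overlapped (exact permutation p = 0.2, adjusted 0.267). These ratios carry the counting error of SERPINB2.

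**Figure D2:**
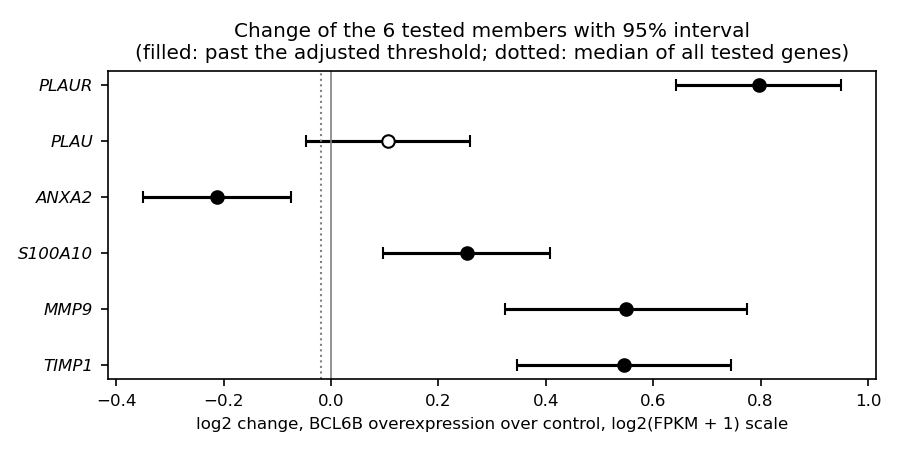
Log2 change of the 6 tested genes, BCL6B overexpression over control, on the log2(FPKM + 1) scale; bars are 95% intervals from limma, filled points passed at an adjusted p below 0.05, and the dotted line is the median of all tested genes (-0.018). PLAUR is highest at 0.80, ANXA2 is below 0 at -0.21, and the interval of PLAU crosses 0.

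ANXA2 (ENSG00000182718, chr15:60347134-60402883, minus strand) encodes annexin A2, the subunit of the plasminogen-binding complex that binds membrane phospholipids. It had 7.59, 7.61 and 7.06 FPKM with BCL6B and 8.26, 9.10 and 8.91 FPKM in controls. Every BCL6B library was lower than every control, by a narrow margin. The means were 7.42 ± 0.313 FPKM with BCL6B and 8.76 ± 0.445 FPKM in controls, with a log2 change of -0.21 (SE 0.058) and a limma adjusted p of 0.0474. The call was lost without any single library (adjusted p 0.0694 to 0.142) and under median ratio scaling (0.0659), quantile normalization (0.0785), no filter (0.0838) and no mean-variance trend (0.0656), while the direction held throughout. The processed pseudogene ANXA2P2 on chromosome 9 is 98.4% identical to ANXA2 over 1020 bases and had 58, 49 and 63 reads with BCL6B and 80, 28 and 62 reads in controls. Adding those reads to ANXA2 gave a log2 difference of means of -0.233, against -0.239 for ANXA2 alone.

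S100A10 (ENSG00000197747, chr1:151982915-151994390, minus strand) encodes the partner of annexin A2, a protein of the S100 family whose carboxyl-terminal lysines bind plasminogen. It had 50.4, 46.5 and 42.9 FPKM with BCL6B and 39.7, 39.6 and 37.3 FPKM in controls. The BCL6B libraries were spread more widely than the controls and lay above all of them. The means were 46.6 ± 3.79 FPKM with BCL6B and 38.9 ± 1.33 FPKM in controls, with a log2 change of 0.25 (SE 0.066) and a limma adjusted p of 0.0413. S100A10 passed without BCL6B replicate 3 (0.0244). It did not pass without BCL6B replicate 1 (0.0701), BCL6B replicate 2 (0.108), control replicate 1 (0.0959), control replicate 2 (0.0808) or control replicate 3 (0.132), nor as TPM (0.056), without the filter (0.0958) or without the trend (0.0688).

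Within each library, ANXA2 stood at 0.151, 0.164 and 0.165 of the S100A10 level with BCL6B and at 0.208, 0.230 and 0.239 of it in controls. The highest BCL6B ratio was below the lowest control ratio. The mean log2 ratio was -2.65 ± 0.0726 with BCL6B and -2.15 ± 0.104 in controls, a difference of -0.50 or 0.708-fold (exact permutation p = 0.1, the smallest possible, adjusted 0.2). A ratio shows unequal change of its members, and does not depend on the library scaling.

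MMP9 (ENSG00000100985, chr20:46008908-46016561, plus strand) encodes the gelatinase. It had 35.5, 35.7 and 44.6 FPKM with BCL6B and 26.9, 26.6 and 24.3 FPKM in controls. BCL6B replicate 3, which also had the highest BCL6B and PLAUR levels, stood above the other two BCL6B libraries. The means were 38.6 ± 5.20 FPKM with BCL6B and 25.9 ± 1.43 FPKM in controls, with a log2 change of 0.55 (SE 0.095, 95% interval 0.32 to 0.77) and a limma adjusted p of 0.0114. Without any single library the adjusted p lay between 0.0127 and 0.046. SLC12A5-AS1, on the opposite strand, shares 430 exon bases with MMP9 and had 53, 51 and 70 reads with BCL6B and 52, 56 and 54 reads in controls (adjusted p = 0.946).

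TIMP1 (ENSG00000102265, chrX:47582313-47586789, plus strand) encodes the secreted inhibitor that binds MMP9. It had 68.8, 73.5 and 70.5 FPKM with BCL6B and 43.3, 54.7 and 47.5 FPKM in controls. The spread was larger among the controls, and the groups did not overlap. The means were 70.9 ± 2.39 FPKM with BCL6B and 48.5 ± 5.75 FPKM in controls, with a log2 change of 0.55 (SE 0.084, 95% interval 0.35 to 0.74) and a limma adjusted p of 0.0081. Without any single library the adjusted p lay between 0.00655 and 0.0362.

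Protease and inhibitor rose by nearly the same factor. The ratio of MMP9 to TIMP1 was 0.517, 0.485 and 0.633 with BCL6B and 0.621, 0.487 and 0.512 in controls. The groups overlapped, and the difference in mean log2 ratio was 0.012 (exact permutation p = 0.8, adjusted 0.8), with either sign when a library was left out (-0.101 to 0.117). The SD of this log2 ratio was 0.20 with BCL6B and 0.185 in controls.

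**Figure D3:**
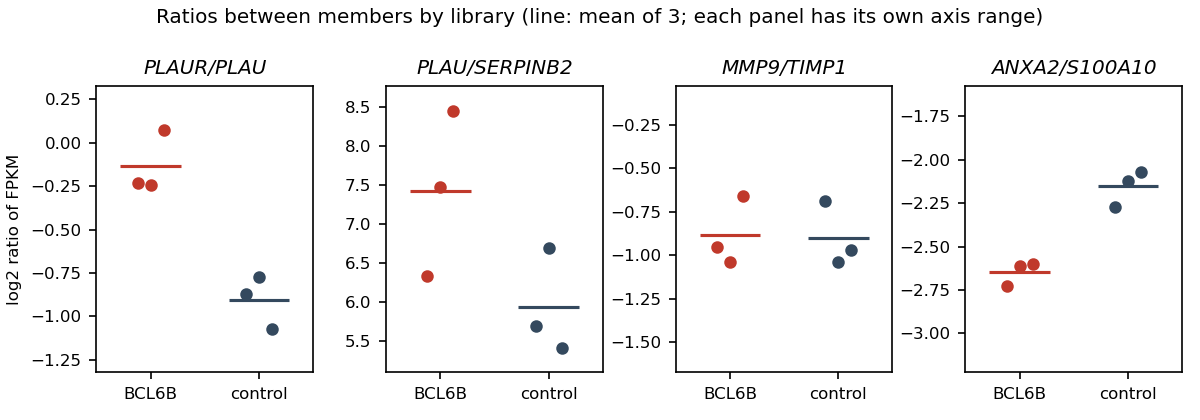
Log2 ratio of FPKM between 4 pairs of genes in each library, with BCL6B-overexpressing libraries on the left and controls on the right; points are libraries, lines are means of 3, and each panel has its own axis range. The groups are apart for PLAUR/PLAU (means -0.135 and -0.904) and ANXA2/S100A10 (means -2.65 and -2.15) and overlap for PLAU/SERPINB2 and MMP9/TIMP1.

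The order of the levels in deposited FPKM was, with BCL6B, TIMP1, S100A10, MMP9, PLAU, PLAUR, ANXA2 and SERPINB2. In this order the ranges of S100A10 and MMP9 overlapped, as did those of PLAU and PLAUR. In controls the order was TIMP1, S100A10, MMP9, PLAU, ANXA2, PLAUR and SERPINB2, so PLAUR and ANXA2 stood in the opposite order there. The order rests on the gene length in the deposited table, which for each of the 7 equals the union of all exons annotated in GENCODE 29. That length is 8824 bases for ANXA2, which has 38 annotated transcripts, against 1676 bases for its principal transcript. For PLAUR, with 16 transcripts, it is 4457 against 1548 bases, and for MMP9 it is 2336 bases either way. Per length of the principal transcript, ANXA2 stood at 39.1 ± 1.65 FPKM with BCL6B and 46.1 ± 2.35 FPKM in controls, and S100A10 at 59.8 ± 4.87 FPKM with BCL6B and 49.9 ± 1.71 FPKM in controls. PLAUR stood at 36.1 ± 2.20 FPKM with BCL6B and 19.6 ± 1.19 FPKM in controls, above PLAU at 17.5 ± 1.15 FPKM with BCL6B and 16.2 ± 0.846 FPKM in controls. These levels keep all reads of a gene, so any reads from exons outside the principal transcript would raise them. The order of PLAUR above PLAU in controls holds only if such reads are few, which was not tested. The change between the groups for a gene does not depend on its length, apart from the added 1 in the log. This length was chosen after the data were seen.

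**Figure D4:**
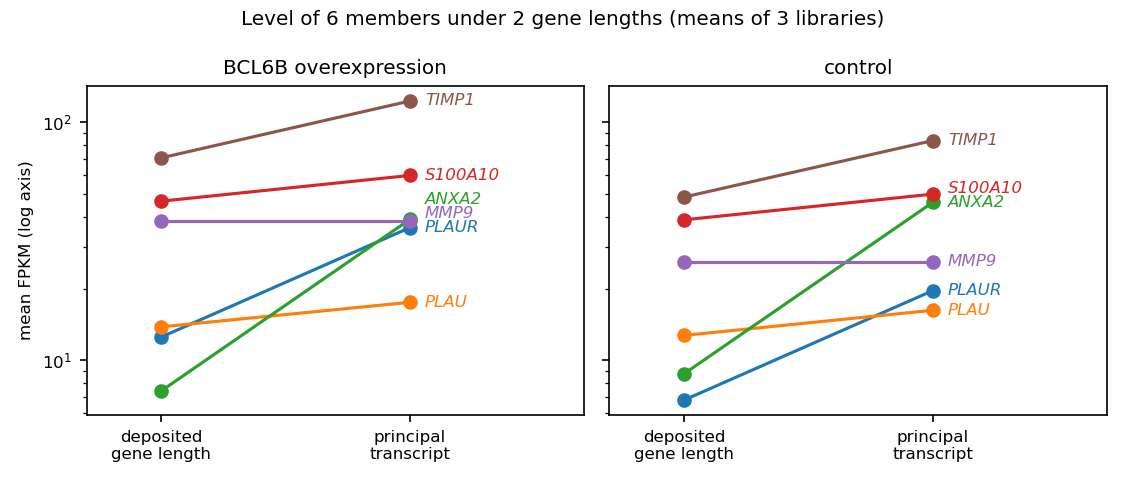
Mean FPKM of 6 genes on a log axis, using the gene length of the deposited table and the length of the principal transcript, with BCL6B overexpression in the left panel and control in the right; each point is a mean of 3 libraries. With BCL6B, ANXA2 stands at 7.42 FPKM under the deposited length and 39.1 FPKM under the principal transcript, and MMP9 stays at 38.6 FPKM.

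Of all tested genes 8.18% were higher and 10.1% lower, and the counts for 9 further gene lists stand beside these shares, with a median of -0.018 over all tested genes. Most of the other genes of the plasminogen system were below the level filter. Of 21 such genes 8 were tested, 3 rose and 1 fell, with a median log2 change of 0.18. PLG, the gene of plasminogen, was listed at 0 in all 6 libraries, as were HRG and TFPI2. F12, the contact-phase factor XII, which can activate plasminogen, stood at 2.94 ± 0.694 FPKM with BCL6B and 1.49 ± 0.170 FPKM in controls (1.98-fold, limma adjusted p = 0.0201). SERPINE2, protease nexin 1, which inhibits urokinase, stood at 4.0 ± 0.387 FPKM with BCL6B and 2.93 ± 0.131 FPKM in controls (1.36-fold, adjusted p = 0.0256). THBD, thrombomodulin, fell to 1.05 ± 0.146 FPKM with BCL6B, against 1.7 ± 0.0473 FPKM in controls (adjusted p = 0.0244). ENO1, an enolase that binds plasminogen at the cell surface, had 437, 469.7 and 479.9 FPKM with BCL6B and 429.6, 460.1 and 434 FPKM in controls (adjusted p = 0.471). F3, tissue factor, did not pass either (adjusted p = 0.256).

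The calls of F12, SERPINE2 and THBD were sensitive to single libraries. F12 did not pass without BCL6B replicate 3 (adjusted p = 0.053), control replicate 2 (0.054) or control replicate 3 (0.0684). SERPINE2 passed only without BCL6B replicate 2 among the 6 fits (the others gave 0.0622 to 0.0861), and THBD only without BCL6B replicate 1 (the others gave 0.0551 to 0.0772). As TPM, SERPINE2 had an adjusted p of 0.0503.

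Partners of the urokinase receptor and the receptors that clear it moved in both directions. Of 25 genes 14 were tested, 5 rose and 2 fell, with a median log2 change of 0.035. FYN, a SRC family kinase linked to receptor signalling, had 6.44, 6.68 and 6.92 FPKM with BCL6B and 2.93, 3.02 and 3.00 FPKM in controls. The groups were far apart (2.24-fold, limma adjusted p = 0.000308). MRC2, the collagen receptor that associates with the urokinase receptor (uPARAP), stood at 43.1 ± 4.08 FPKM with BCL6B and 30.4 ± 0.539 FPKM in controls (1.42-fold, adjusted p = 0.00677). ITGB2, the beta chain of the leukocyte integrins, stood at 21.3 ± 1.92 FPKM with BCL6B and 15.5 ± 0.545 FPKM in controls (1.38-fold, adjusted p = 0.00953). ITGA5 and ITGAL, integrin alpha chains, also passed upward. SORL1, a sorting receptor that binds urokinase receptor complexes, had 3.75, 3.85 and 3.55 FPKM with BCL6B and 6.58, 6.86 and 6.89 FPKM in controls (0.548-fold, adjusted p = 0.000874). ITGA4 fell to 0.717-fold (adjusted p = 0.00918). LRPAP1, the chaperone of the clearance receptor LRP1, had an adjusted p of 0.156 and ITGB1 of 0.503, and EGFR and CAV1 were listed at 0.

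Among 15 genes of proteases and their relatives that act on pro-urokinase or on the urokinase receptor, 10 were tested, 0 rose and 3 fell, with a median log2 change of -0.089. No gene of the list rose at an unadjusted limma p under 0.05 or with voom either, and with 8.18% of all tested genes higher, 0 of 10 is near the background. CTSG, cathepsin G, which can cut the urokinase receptor, had 21.9, 23.5 and 19.7 FPKM with BCL6B and 41.3, 50.3 and 40.9 FPKM in controls (0.491-fold, limma adjusted p = 0.00207). PRTN3, proteinase 3, stood at 184 ± 25.8 FPKM with BCL6B and 327 ± 3.51 FPKM in controls (0.564-fold, adjusted p = 0.00338). AZU1, azurocidin, a relative without protease activity, stood at 139 ± 7.07 FPKM with BCL6B and 188 ± 8.35 FPKM in controls (0.743-fold, adjusted p = 0.00512). These are primary granule genes, and the granule marker MPO was lower too, at 1573 to 1759 FPKM with BCL6B and 1975 to 2121 FPKM in controls. The granule genes of the list did not all move together, since ELANE, neutrophil elastase, had a log2 change of 0.08 (adjusted p = 0.818). FURIN (adjusted p = 0.285) and CTSD (0.325) did not pass.

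Of 12 other clade B serpins 7 were listed at 0 and 3 were tested. SERPINB8, an intracellular inhibitor of furin, had 3.68, 3.44 and 3.07 FPKM with BCL6B and 2.04, 2.18 and 1.92 FPKM in controls (1.66-fold, limma adjusted p = 0.00738). SERPINB1, which inhibits neutrophil serine proteases, stood at 7.61 ± 0.850 FPKM with BCL6B and 9.74 ± 0.429 FPKM in controls (0.781-fold, adjusted p = 0.0377), and passed only without BCL6B replicate 1 among the 6 fits that leave out a library (the others gave 0.06 to 0.118). SERPINB10 is given above. The median log2 change of the 3 was -0.32.

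Annexins also moved apart from each other. Of 12 genes, with AHNAK, the giant protein that binds the annexin A2 and S100A10 complex, 9 were tested, 3 rose and 4 fell, with a median log2 change of -0.071. ANXA1, known in monocytes for its anti-inflammatory part, had 9.20, 9.19 and 8.86 FPKM with BCL6B and 16.1, 16.9 and 16.2 FPKM in controls (0.554-fold, limma adjusted p = 0.000308). The fall of ANXA1 was larger than that of ANXA2 in fold (0.847). ANXA5 stood at 33.4 ± 1.52 FPKM with BCL6B and 26.0 ± 0.535 FPKM in controls (1.29-fold, adjusted p = 0.00552). AHNAK stood at 11.1 ± 0.165 FPKM with BCL6B and 8.79 ± 0.127 FPKM in controls (1.27-fold, adjusted p = 0.00629). ANXA8 fell to 0.674-fold (adjusted p = 0.00345), and its reads are uncertain because of its near-identical copy ANXA8L1. ANXA7 fell to 0.806-fold (adjusted p = 0.0127) and did not pass without BCL6B replicate 2 (0.0502), control replicate 1 (0.0502) or control replicate 3 (0.0504). ANXA11 rose to 1.18-fold (adjusted p = 0.0266), passed only without BCL6B replicate 1 among those 6 fits (the others gave 0.0596 to 0.0934), and did not pass as TPM (0.0845). ANXA4 also passed downward. ANXA6 (adjusted p = 0.387) and ANXA9 (0.839) did not pass.

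Of 23 other metalloproteinases 10 were tested, 3 rose and 0 fell, with a median log2 change of 0.16. No gene of this list fell at an unadjusted limma p under 0.05 or with voom either, and with 10.1% of all tested genes lower, 0 of 10 is near the background. The 3 that rose became 1 without BCL6B replicate 2, without control replicate 1, without control replicate 2 or without the filter. ADAM8, a leukocyte surface sheddase, had 2.43, 2.68 and 3.46 FPKM with BCL6B and 1.33, 1.18 and 1.36 FPKM in controls (2.21-fold, limma adjusted p = 0.00733). MMP1, interstitial collagenase, had 0.701, 0.938 and 0.507 FPKM with BCL6B and 0.0276, 0.251 and 0.176 FPKM in controls (4.73-fold, adjusted p = 0.0365). It is a low gene, with 26, 33 and 20 reads with BCL6B and 1, 9 and 6 reads in controls. MMP14, a membrane-bound collagenase, stood at 6.09 ± 0.588 FPKM with BCL6B and 4.51 ± 0.525 FPKM in controls (1.35-fold, adjusted p = 0.0391). MMP1 passed only without BCL6B replicate 3 among the 6 fits (the others gave 0.0595 to 0.114). MMP14 did not pass without BCL6B replicate 2 (0.116), BCL6B replicate 3 (0.103), control replicate 1 (0.118) or control replicate 2 (0.102). ADAM15 had an adjusted p of 0.31 and ADAM10 of 0.171.

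Of 13 inhibitors and surface anchors of metalloproteinases 9 were tested, 4 rose and 2 fell, with a median log2 change of 0.042. SDC4, a heparan sulphate proteoglycan, stood at 8.70 ± 1.01 FPKM with BCL6B and 5.44 ± 0.448 FPKM in controls (1.60-fold, limma adjusted p = 0.00806). The tetraspanin CD63, a surface receptor for TIMP1, stood at 38.1 ± 2.87 FPKM with BCL6B and 29.3 ± 1.99 FPKM in controls (1.30-fold, adjusted p = 0.0163). CD63 did not pass without control replicate 1 (0.0609) or control replicate 3 (0.0615). The tetraspanin CD82 rose to 1.35-fold (adjusted p = 0.0109), and TIMP2 also passed upward. SRGN, serglycin, the granule proteoglycan known to carry MMP9, had 1143, 1009.8 and 1037 FPKM with BCL6B and 1981, 1717 and 1946 FPKM in controls (0.565-fold, adjusted p = 0.0024). Its fall ran opposite to the rise of MMP9. CD44, which docks MMP9 at the surface, fell to 0.805-fold (adjusted p = 0.0121, and 0.0504 without control replicate 3). BSG, the metalloproteinase inducer, had an adjusted p of 0.113 (0.0437 without BCL6B replicate 3) and RECK, a membrane inhibitor of MMP9, of 0.807.

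Of 9 other proteins with the Ly6/uPAR fold that the urokinase receptor is built from, 1 was tested. CD59, the inhibitor of the complement attack complex, had 5.21, 5.37 and 4.89 FPKM with BCL6B and 6.22, 6.90 and 6.18 FPKM in controls (0.801-fold, limma adjusted p = 0.0297). It was lower where PLAUR was higher. It did not pass without any of the 6 libraries in turn (0.0576 to 0.0775).

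Of 27 transcription factors known at promoters of these genes 25 were tested, 7 rose and 1 fell, with a median log2 change of 0.058. JUND, a JUN family subunit of AP-1, had 50.7, 56.4 and 60.2 FPKM with BCL6B and 18.7, 19.8 and 21.1 FPKM in controls (2.8-fold, limma adjusted p = 0.000232). JUN had 13.3, 14.5 and 14.3 FPKM with BCL6B and 6.56, 5.96 and 5.84 FPKM in controls (2.30-fold, adjusted p = 0.000294). For both, the lowest BCL6B library stood well above the highest control. RELB, an NF-kB subunit, rose to 1.46-fold (adjusted p = 0.00497), and BATF3, FOS, JUNB and FOSL1 also passed upward. BATF, an AP-1 family member that pairs with JUN proteins, fell to 0.663-fold (adjusted p = 0.00626). The other 17 tested genes of the list did not pass, among them FOSL2 (limma adjusted p = 0.238), ATF3 (0.783), NFKB1 (0.34) and RELA (0.784). SPI1 (adjusted p = 0.123) and NFKB2 (0.0875) did not pass, although NFKB2 did with voom on the recovered reads (0.021) and without BCL6B replicate 1 (0.0362).

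**Figure D5:**
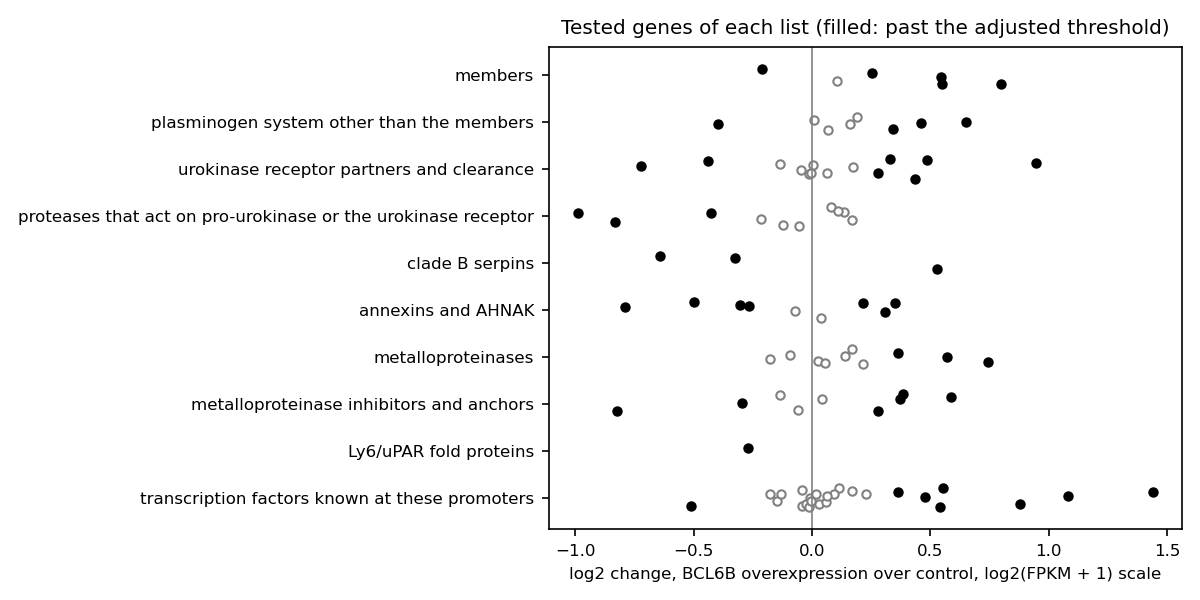
Log2 change of every tested gene of the 7 members and of each of the 9 other lists, BCL6B overexpression over control, on the log2(FPKM + 1) scale; filled points passed at an adjusted p below 0.05 and open points did not, and height within a row only separates points. Most lists have filled points on both sides of 0, and JUND lies farthest right at 1.44.

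The 5 protein-coding genes whose level over the 6 libraries was most like that of PLAUR were HOXB9, COL7A1, TCF19, PPIF and FAM57A. Pearson's r of log2(FPKM + 1) with PLAUR was 0.998 for HOXB9 and lay between 0.9971 and 0.9977 for the other four. The 6 points are 2 groups of 3 libraries, so r follows the difference between the groups and is given as a description. HOXB9, a homeobox gene, had 45.1, 46.4 and 49.5 FPKM with BCL6B and 21.9, 24.1 and 22 FPKM in controls. COL7A1, the chain of anchoring fibril collagen, had 1.91, 2.01 and 2.13 FPKM with BCL6B and 0.929, 0.957 and 0.849 FPKM in controls. PPIF, mitochondrial cyclophilin, had 80.7, 82.5 and 86.6 FPKM with BCL6B and 64.7, 67.6 and 63.4 FPKM in controls. In each of these genes, as in PLAUR, BCL6B replicate 3 was the highest of its group and control replicate 2 the highest of the controls. The genes were picked for likeness to PLAUR over these same libraries. This shared order therefore largely follows from the choice and is no separate result.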

How the data were processed

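The authors deposited FPKM values of the 6 libraries as a single table that also lists each gene's length, per the file headers. Per the submitters' processing notes, cutadapt 1.9 was used and the build was GRCh38. The sources used here name no aligner or counter and do not say how strand and reads with several matches were handled. FPKM multiplied by gene length gave whole multiples of 1 step per library for 100% of 139702 values above 0 (tolerance 0.01), which gave reads per gene and library totals (reads in listed genes were 94.2% to 96.8% of these totals).

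Genes with FPKM of at least 0.5 in at least 3 libraries (14662) entered limma 3.58.1 (R 4.3.3) as log2(FPKM + 1). The variance prior followed a trend on mean level, and p-values were adjusted by Benjamini-Hochberg over all genes entered. A log2 change on this scale understates the change of low genes. The script was checked on simulated data. Intervals are 95% and two-sided. Ratios used exact permutation tests (SciPy 1.17.1, Python 3.11.15). Pseudogene identity came from BLAST+ 2.17.0 and gene models from GENCODE 29, whose coordinates equal the table's for 58724 genes. Promoters came from RefSeq (GRCh38.p14), matched by symbol.

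The members and the gene lists were chosen with earlier results of these data known, so no list serves as independent support. The text names all 7 members, BCL6B, GGT5, pseudogenes and overlapping genes of members, and the 5 protein-coding genes most like PLAUR. From each of 9 other lists it names up to 3 genes with the smallest adjusted p in each direction. It also takes up to 2 of the highest of each list that did not pass. ITGA5, ITGAL, ANXA4, ANXA8L1, TIMP2, ELANE, BATF3, FOS, JUNB, FOSL1 and SERPINB6 are named outside this rule, after their values were seen. FOSL2, ATF3, NFKB1 and RELA were added in the same way. Some genes that the rule takes are counted but not reported here by name. Alternatives were the pseudocount, the filter, TPM, median ratio scaling, quantile normalization, no trend, a replicate block, voom on the recovered reads and leaving out each library. The principal transcript length and the sum of ANXA2 and ANXA2P2 were chosen after the data were seen.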

Additional observations from a re-analysis of the deposited data

How the results depend on the processing

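No named gene that passed changed direction under the alternatives run. Values near 0 that passed no test changed sign: ENO1 under quantile normalization (-0.086), ANXA9 without BCL6B replicate 2 (-0.069), RECK without control replicate 2 (-0.0425), and the log2 ratio of MMP9 to TIMP1 without BCL6B replicate 3 (-0.101), control replicate 2 (-0.0587) or control replicate 3 (-0.0229). PLAUR, MMP9 and TIMP1 passed, and PLAU did not, under all 10 alternatives and without each library. The number of genes called, 2687 here, was 1588 without the filter, 3714 with voom on the recovered reads and 1222 (without control replicate 3) to 2272 when a library was left out. The 5 members called became 3 without the filter and 3 without the trend, and 3 to 4 when a library was left out. The 42 list genes called became 25 to 37 when a library was left out and 30 (no filter) to 43 (voom) under the other alternatives. ANXA2 (log2 change -0.21) missed the threshold without the filter (-0.213), without the trend (-0.213), under median ratio scaling (-0.191), under quantile normalization (-0.187) and without each library (-0.25 to -0.181). S100A10 missed it without the filter (0.252), without the trend (0.252) and as TPM (0.224), and ranged over 0.195 to 0.31 without a library. Named list genes that missed the threshold were F12, SERPINE2, THBD, SERPINB10, SERPINB1, MMP1, MMP14 and CD59 without the filter (adjusted p 0.062 to 0.101), SERPINE2, SERPINB1, ANXA11 and MMP14 as TPM (0.0503 to 0.0845), SERPINB1 (0.053) and MMP14 (0.0511) without the trend, and MMP1 with a pseudocount of 0.1 (0.0621). The log2 ratio of PLAU to SERPINB2 was higher with BCL6B by 1.49 on the deposited FPKM, but only by 0.262 with a pseudocount of 1 added to both genes. The causes were not tested. More genes are adjusted for without the filter, and fewer libraries enter when 1 is left out, but the part of either in the lost calls was not tested. Deviations of same-numbered libraries had correlations of 0.0511, 0.11 and -0.00189. The same-numbered control was the best match for BCL6B replicates 1 and 2, while BCL6B replicate 3 correlated best with control replicate 1, at 0.0386. These small values, from 3 libraries per group, do not decide whether the numbers pair samples. With the replicate block 2328 genes, 4 members and 36 list genes were called, and the block ended the calls of ANXA2 (log2 change -0.213, adjusted p 0.0768), THBD (0.0562), ANXA11 (0.0509) and MMP1 (0.054) among the named genes. SERPINB2 rested on 2 to 15 reads per library, and the part of depth in its result was not tested.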
